A study of Rattus norvegicus with 49 samples.

Results

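Of the 9 arrays of 3-month-old rats, 4 carried a strong signal of transthyretin (Ttr), the carrier of thyroid hormone that choroid plexus epithelium makes in large amounts. These 4 arrays (replicates 4, 6, 7 and 8) had a Ttr signal of at least 3000 and are called Ttr-high here, and the other 5 (replicates 1, 2, 3, 5 and 9) are called Ttr-low. They belong to a series of 49 arrays, 1 per animal, of the CA1 field of the left hippocampus of Fisher 344 rats. The other ages were 6, 9 and 12 months with 9 rats each and 23 months with 13. All the animals, the 3-month rats included, had been tested in a water maze before they were killed, and the labels give no genotype or drug. The Ttr-high and Ttr-low rats share strain, age, tissue and training in the labels, and were chosen by the Ttr signal alone, which is a measured value. The 3-month difference is therefore given as a description, and what goes with Ttr was tested only on the 40 arrays of the other ages. Whether choroid plexus tissue was in the dissected pieces was not tested, and the values of its markers are given.

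The choroid plexus is a fringe of secretory epithelium around a stroma rich in blood vessels, which hangs into the brain ventricles and makes cerebrospinal fluid. In the lateral ventricle it lies against the hippocampus. Its epithelium secretes Ttr, insulin-like growth factor 2 and their binding partners, pumps ions and water, takes up folate, and depends on the transcription factor Otx2. Neurons and glia of CA1 are known for little or no Ttr transcript.

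Ttr was measured by 1 probe set with a single gene symbol. Its signals, in the scaled units of the array software, were 8932, 5108, 3908 and 12003 on Ttr-high replicates 4, 6, 7 and 8, and 437, 183, 133, 116 and 320.0 on Ttr-low replicates 1, 2, 3, 5 and 9. The lowest array inside the threshold thus had 3908 and the highest outside it 437. The mean log2 difference was 5.03, or 32.6-fold. Only 1 of the 40 arrays of other ages passed the same threshold, replicate 11 of 23 months, with 16310. The other 12 arrays of 23 months had 124 to 1123, with a median of 242. Ttr reached at most 488 at 6 months, 395 at 9 months and 657 at 12 months.

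**Figure D1:**
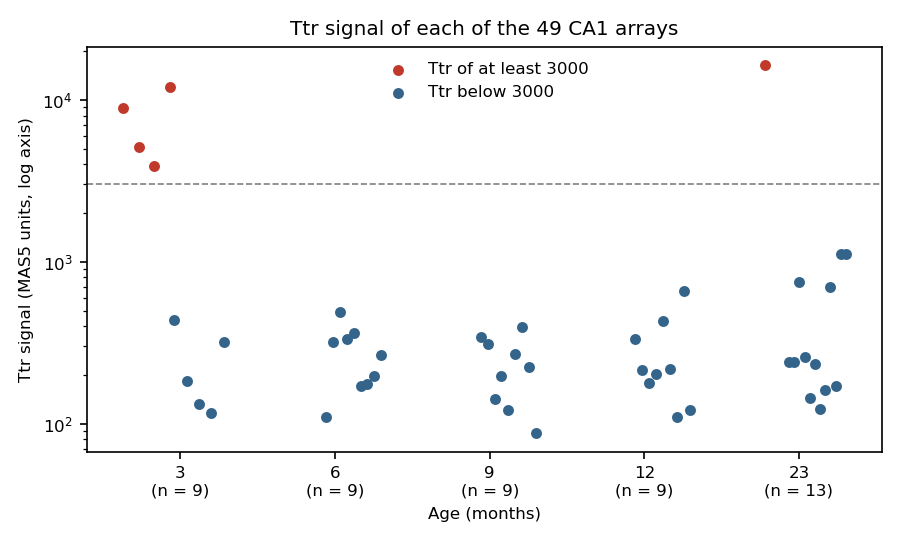
Ttr signal of each array (points, log axis) by age in months, with the dashed line at the threshold of 3000 and the arrays above it in red. The 4 Ttr-high arrays of 3 months lie between 3908 and 12003 and replicate 11 of 23 months at 16310, while the other 44 arrays reach at most 1123.

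The promoters of 3 of the 4 transcripts that were at least 2-fold higher on the Ttr-high arrays were in the RefSeq table of assembly GRCr8 and are shown to let a reader see what lies before their starts. They were searched for TAATCC, the core site of Otx2, on both strands. Each run covers the 250 bases before the start of the gene, all on the + strand, at chr18:12218508-12218757 for Ttr, chr13:79046407-79046656 for F5 and chr8:53342284-53342533 for Mfrp. Capitals mark a match, which in Mfrp is on the reverse strand.
Ttr: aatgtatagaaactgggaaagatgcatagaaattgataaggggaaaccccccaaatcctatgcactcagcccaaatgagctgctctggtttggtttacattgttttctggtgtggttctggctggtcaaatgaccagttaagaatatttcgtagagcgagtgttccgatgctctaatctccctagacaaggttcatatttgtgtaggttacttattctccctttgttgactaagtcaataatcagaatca
F5: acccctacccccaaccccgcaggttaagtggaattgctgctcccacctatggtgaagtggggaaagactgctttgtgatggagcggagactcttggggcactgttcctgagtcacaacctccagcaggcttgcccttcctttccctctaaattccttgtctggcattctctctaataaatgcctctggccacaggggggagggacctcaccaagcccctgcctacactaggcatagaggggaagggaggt
Mfrp: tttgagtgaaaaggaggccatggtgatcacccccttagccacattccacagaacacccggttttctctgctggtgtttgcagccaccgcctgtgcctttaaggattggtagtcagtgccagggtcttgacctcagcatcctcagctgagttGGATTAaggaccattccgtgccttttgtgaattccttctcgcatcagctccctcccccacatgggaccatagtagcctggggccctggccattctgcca
Only Mfrp of these 3 held the letters in this window. Over the windows of 250 bases before to 50 after the start, 2 of 26 promoters (7.69%) of the 24 genes searched that the table holds had a match, in Mfrp and Pla2g5, against 2399 of 33469 promoters (7.17%) in the whole table. Those 24 are among 30 genes that were higher on the Ttr-high arrays by the naming rule or called higher on replicate 11.

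Across the 9541 probe sets that reached a signal of 100 on at least 5 of the 49 arrays, 60 (0.629%) were higher on every Ttr-high array than on any Ttr-low array, and 51 (0.535%) were lower on every one. At least 2-fold, 4 were higher (0.0419%) and 0 lower. The 4 were Ttr, Sostdc1, F5 and Mfrp. Nothing is read from these shares, since the arrays were sorted by Ttr.

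Secreted proteins came next after Ttr. Sostdc1, a secreted antagonist of BMP and Wnt signals, had 251, 213, 143 and 567 on Ttr-high replicates 4, 6, 7 and 8, and 58.1, 34.9, 41.6, 60.6 and 45.9 on Ttr-low replicates 1, 2, 3, 5 and 9. The log2 difference was 2.44, or 5.44-fold. F5, coagulation factor V, had 178, 102, 108 and 372 on the Ttr-high arrays and 67.4, 56.0, 66.1, 31.7 and 57.0 on the Ttr-low arrays, a log2 difference of 1.61. For both genes replicate 8 was the highest array and replicate 4 the next, as for Ttr.

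Enpp2, or autotaxin, the secreted enzyme that makes lysophosphatidic acid, was the brightest of these transcripts apart from Ttr. Its signals were 2052, 1824, 1461 and 3447 on Ttr-high replicates 4, 6, 7 and 8, and 1162, 1279, 944, 1076 and 1274 on Ttr-low replicates 1, 2, 3, 5 and 9, a log2 difference of 0.87. Igfbp2, a binding protein of insulin-like growth factors, had 498, 364, 374 and 598 on the Ttr-high arrays and 316, 299, 266, 233 and 225 on the Ttr-low arrays, a log2 difference of 0.76. Mdk (midkine), a secreted heparin-binding growth factor, had 704, 629, 633 and 893 on the Ttr-high arrays and 517, 543, 499, 471 and 540 on the Ttr-low arrays, a log2 difference of 0.46. The groups did not overlap for any of the 3, and replicate 8 was again the highest. The Ttr-low arrays all kept a clear Enpp2 signal, and oligodendrocytes are also known to make this enzyme.

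Igf2, the growth factor that Igfbp2 binds, did overlap. Its brightest probe set had 285, 306, 375 and 350 on Ttr-high replicates 4, 6, 7 and 8, and 175, 306.5, 208, 221 and 177 on Ttr-low replicates 1, 2, 3, 5 and 9, a log2 difference of 0.62. Replicate 2 alone among the Ttr-low arrays reached the Ttr-high range.

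Among membrane proteins and transporters, Mfrp, a frizzled-related membrane protein, had 128, 100.1, 110 and 178 on Ttr-high replicates 4, 6, 7 and 8, and 66.3, 61.6, 88.0, 53.7 and 46.0 on Ttr-low replicates 1, 2, 3, 5 and 9, a log2 difference of 1.03. Slc13a4, a sodium-dependent sulfate transporter, had 144, 141, 144 and 232 on the Ttr-high arrays and 106, 113, 138, 137 and 118 on the Ttr-low arrays. Its log2 difference was 0.41, and 0.23 without replicate 8. Folr1, the folate receptor of choroid plexus epithelium, had 95.5, 158, 106 and 308 on the Ttr-high arrays and 86.8, 102, 149, 87.5 and 103 on the Ttr-low arrays, so the groups overlapped.

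In the nucleus, Cdkn1c, an inhibitor of cyclin-dependent kinases, had 188, 139, 180 and 300 on Ttr-high replicates 4, 6, 7 and 8, and 104, 119, 106, 97.7 and 135 on Ttr-low replicates 1, 2, 3, 5 and 9, a log2 difference of 0.80. Msx1, a homeobox transcription factor of choroid plexus, had 340, 209, 279 and 411 on the Ttr-high arrays and 205, 300.1, 184, 228 and 224 on the Ttr-low arrays, with overlap. Kcnj11, the pore subunit of ATP-sensitive potassium channels, was higher without overlap by 0.72 on the log2 scale. It had 359 to 462 on the Ttr-high arrays and 200 to 290 on the Ttr-low arrays.

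The Ttr-low signals of Sostdc1, F5 and Mfrp lay below 100, where the arrays measure poorly. These 3 were also among the 33 probe sets that passed the filter only through arrays with Ttr of at least 3000, so their place among the differences was in part set by the filter. With every signal under 100 raised to 100, the folds were 2.57 for Sostdc1, 1.64 for F5 and 1.26 for Mfrp, an alternative chosen after the data were seen. Of the 60 probe sets higher without overlap, 52 differed by less than 1.5-fold. Leaving out replicate 6 gave 8 probe sets at least 2-fold higher in place of 4, and leaving out replicate 7 gave 7.

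The 10 largest lower differences were those of Cacna1a, Slc14a2, Mgat3, Rsbn1, Ifit1, Crtap, Kif26b, Tuba8, Myl1 and Wnt6, between -0.87 and -0.56 on the log2 scale. Cacna1a, the pore subunit of P/Q-type calcium channels, had 48.2, 58.1, 53.9 and 40.5 on Ttr-high replicates 4, 6, 7 and 8, and 116, 89.8, 126, 68.4 and 68.8 on Ttr-low replicates 1, 2, 3, 5 and 9. Of the 51 lower probe sets, 14 had a Ttr-high mean under 100, and 8 had a Ttr-low mean under 100, as did 8 of the 60 higher ones.

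A list of 88 choroid plexus genes was taken from textbook knowledge, with earlier results of these data known. It had 69 genes and 105 probe sets on the array, of which 54 probe sets of 42 genes passed the filter. Without Ttr, 5 of the 53 that passed were higher without overlap (Sostdc1, F5, Enpp2, Igfbp2 and Slc13a4) and 1 was lower (a probe set of the collagen receptor Ddr1). Over all probe sets 0.629% were higher and 0.535% lower without overlap. Sostdc1 and F5 passed the filter only through arrays with Ttr of at least 3000, and nothing is read from the count. The median log2 difference of the 53 was 0.04, against -0.0012 over all probe sets without Ttr. The 3 brightest genes of the list on the Ttr-low arrays overlapped between the groups. Cst3 (cystatin C) had 11905 to 13490 on the Ttr-high arrays and 13194 to 16148 on the Ttr-low arrays, and a probe set of the sodium pump subunit Atp1b1 had 12542 to 15285 on the Ttr-high arrays and 14425 to 16332 on the Ttr-low arrays. A probe set of Car2, a carbonic anhydrase, had 2378 to 2714 on the Ttr-high arrays and 2253 to 2824 on the Ttr-low arrays. These genes are also expressed by glia or neurons of the hippocampus.

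Of 14 defining choroid plexus markers other than Ttr, 11 were on the array with 15 probe sets, and 6 of these passed the filter. Their summed signal was 759 to 1665 on the Ttr-high arrays and 613 to 722 on the Ttr-low arrays. Sostdc1, which passed only through arrays with Ttr of at least 3000, made the separation. Without it the sum of the other 5 was 616 to 1097 on the Ttr-high arrays and 554 to 662 on the Ttr-low arrays, with overlap. Several were too dim to pass. A probe set of Prlr, the prolactin receptor, had 68.8, 64.6, 50.5 and 98.2 on Ttr-high replicates 4, 6, 7 and 8, and 20.1, 29.5, 1.8, 33.6 and 23.6 on Ttr-low replicates 1, 2, 3, 5 and 9. Tmem72, a membrane protein, had 7.9 to 46.4 on the Ttr-high arrays and 3.6 to 7.7 on the Ttr-low arrays. Kl (klotho), the co-receptor of FGF23, had 37.8 to 94.8 on the Ttr-high arrays and 6.6 to 38.2 on the Ttr-low arrays, with overlap at the edge. Kcnj13, an inward-rectifier potassium channel, was not among the dim ones and passed the filter. It went the other way with overlap, at 39.5 to 67.1 on the Ttr-high arrays and 51.5 to 102 on the Ttr-low arrays. Both other Prlr probe sets overlapped too.

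The same threshold, set on arrays that had no part in the 3-month split, picked replicate 11 of 23 months. It was compared with the other 12 arrays of its age in limma, with the spread estimated over the 40 arrays of 6, 9, 12 and 23 months. With 1 array, its own spread is assumed to be that of the others. At an adjusted p under 0.05, 24 probe sets were called higher (0.252% of 9541) and 9 lower (0.0943%). Ttr is among the 24 but chose the array, so it is left out of the counts that follow.

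Of the 23 remaining, 8 had been higher without overlap at 3 months: Sostdc1, F5, Mfrp, Enpp2, Cdkn1c, Igfbp2, Mdk and Slc13a4. They make up 34.8% of the 23 and 13.6% of the 59 that were higher without overlap at 3 months. Among all probe sets without Ttr, 0.241% were called higher on replicate 11. The comparisons use different animals, but the filter joins them. F5 and Mfrp reached a signal of 100 on 5 arrays, the 4 Ttr-high arrays and replicate 11, and Sostdc1 on 7, so these 3 entered because they were high in both. Among probe sets that pass the filter on the 44 arrays with Ttr below 3000, 5 were shared, which are 25.0% of 20 called on replicate 11 and 8.93% of 56 higher at 3 months. Of the 4 such probe sets at least 1.5-fold higher at 3 months, 3 were called on replicate 11 (Enpp2, Cdkn1c and Igfbp2). Of the 52 under 1.5-fold, 2 were called. Of the 51 lower probe sets 0 were called, and with 0.252% called higher and 0.0943% lower over all probe sets nothing is read from that count.

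Sostdc1 had 2122 on replicate 11, against 39.7 to 101 on the other 12 arrays, a log2 difference of 5.05 ± 0.54 (SE; limma adjusted p = 1.55e-08). F5 had 833 on replicate 11 and 31.2 to 98.9 on the others (3.96 ± 0.43, limma adjusted p = 2.04e-08). Mfrp had 528 on replicate 11 and 27.4 to 93.2 on the others (3.17 ± 0.51, limma adjusted p = 1.53e-04). These 3 passed the filter only through arrays with Ttr of at least 3000, replicate 11 among them. With signals under 100 raised to 100 their folds were 21.2 for Sostdc1, 8.33 for F5 and 5.28 for Mfrp, in place of 33.2, 15.5 and 9.00.

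Enpp2 had 6444 on replicate 11 and 1040.1 to 1512 on the others, a log2 difference of 2.40 ± 0.17 (SE; limma adjusted p = 2.13e-13). Igfbp2 had 1570 on replicate 11 and 194 to 323 on the others (2.54 ± 0.28, limma adjusted p = 2.04e-08). Mdk had 1597 on replicate 11 and 541 to 751 on the others (1.38 ± 0.14, limma adjusted p = 8.86e-09). Replicate 11 stood above all 12 others for each.

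Cdkn1c had 427 on replicate 11 and 71.9 to 160.1 on the others (2.01 ± 0.35, limma adjusted p = 4.69e-04). Slc13a4 had 338 on replicate 11 and 72.5 to 154 on the others (1.61 ± 0.29, limma adjusted p = 7.45e-04). Kcnj11, which was among the larger 3-month differences, had 245 on replicate 11 and 226 to 488 on the others, with an adjusted p of 0.981 in limma.

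**Figure D2:**
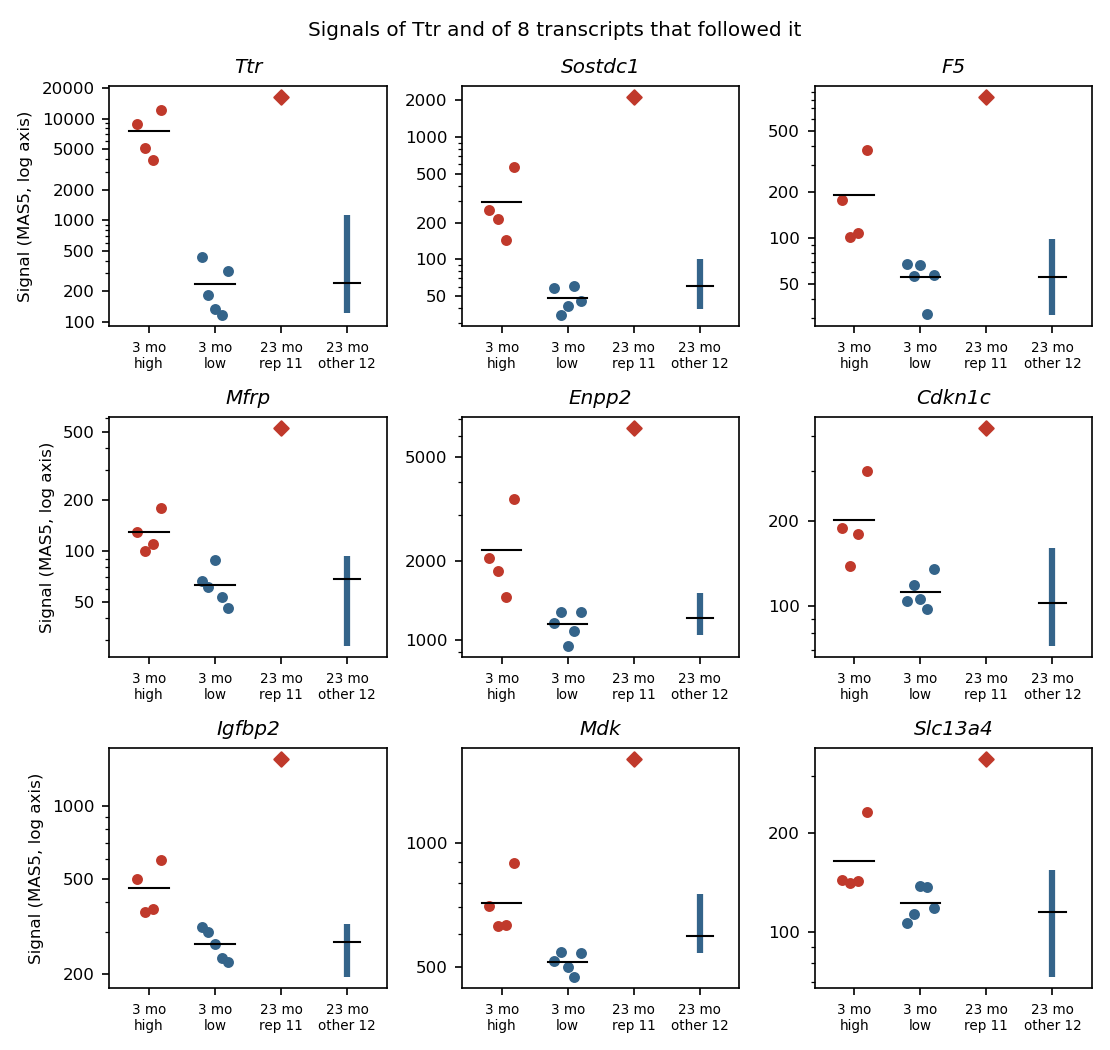
Signals (log axis) of Ttr and of the 8 transcripts higher at 3 months without overlap and called on replicate 11, with the Ttr-high and Ttr-low arrays of 3 months as points (bar, mean), replicate 11 of 23 months as a diamond and the range of its 12 companions as a line (bar, median). In every panel the 4 Ttr-high points lie above the 5 Ttr-low points and the diamond lies above the whole 12-array range.

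The other transcripts called higher on replicate 11 include Igf2 and Folr1, which overlapped at 3 months. Igf2 had 906 on replicate 11 and 124 to 214 on the others (2.43 ± 0.23, limma adjusted p = 1.14e-09). Folr1 had 848 on replicate 11 and 72.3 to 127 on the others (3.21 ± 0.40, limma adjusted p = 4.03e-07). Msx1 had 814 on replicate 11 and 166 to 285 on the others (1.85 ± 0.26, limma adjusted p = 1.10e-05).

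The other members of the choroid plexus list called higher were transporters, a receptor and a junction protein. The anion exchanger Slc4a2 had 519 on replicate 11 and 221 to 293 on the others. A probe set of the copper transporter Slc31a1 had 609 on replicate 11 and 309 to 396 on the others, and one of the serotonin receptor Htr2c had 2233 on replicate 11 and 912 to 1669 on the others. Their log2 differences were 1.05, 0.85 and 1.04. Only some bright members of the list were called, Enpp2 and Htr2c among them. A probe set of Car2, Slc12a2, the sodium-potassium-chloride cotransporter, and Cst3 were not called, and replicate 11 lay within the other 12 for each. A junction protein, Cgnl1, had 340 on replicate 11 and 125 to 252 on the others. The remaining 8 were Ogn, Nt5dc2, Rbm47, Cdr2, Ppp1r36, Zeb1, Pla2g5 and Rbm3, between 0.65 and 1.73 on the log2 scale. After median centring Zeb1 and Rbm3 were not called (limma adjusted p = 0.0524 and 0.0984), and on the 13 arrays of 23 months alone these, Pla2g5, Ppp1r36 and Cgnl1 were not. Ogn (osteoglycin), a matrix proteoglycan of the meninges, had 294 on replicate 11 and 62.6 to 116 on the others.

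Of the 23 transcripts, 12 (52.2%) were in the choroid plexus list, against 0.556% of all probe sets that passed. At 3 months 21 of the 23 had a positive difference, with a median of 0.36 on the log2 scale, against 4737 of 9540 over all probe sets. Zeb1 and Ppp1r36 had negative ones. The choroid plexus list was chosen with earlier results of these data known, so its shares are given as a description. Sostdc1, F5 and Mfrp are among the 23 and passed the filter only through arrays with Ttr of at least 3000. Sostdc1 and F5 are also among the 12, so these counts were in part set by the filter. With no filter on signal, 59 probe sets were called higher (0.462% of 12783) and 28 of them were in the choroid list. Of the 59, 32 had not passed the filter, and 15 of these 32 were in the choroid list. Such dim probe sets can have signals under the floor of 16, which narrows their spread. Of those 12783 probe sets, 0.821% were in the choroid list. Cldn2, a claudin of choroid plexus junctions, was among the 59, with 413 on replicate 11 and 8.7 to 59.7 on the others. So was a probe set of Otx2, with 151 on replicate 11 and 0.7 to 15.2 on the others. All 12 of these others were raised to the floor of 16, which removed the spread among them. Nothing is read from that call. The other Otx2 probe set had 75.9 on replicate 11 and 12.8 to 72.0 on the others and was not called. Replicate 11 was above all 12 others for 28 of the 53 choroid list probe sets that passed, against 8.24% of all that passed. With no filter it was above all 12 for 14 of the 15 probe sets of the defining markers. The 8.24% does not cover probe sets below the filter, so it is not set beside that count. The exception was Kcnj13, at 66.0 on replicate 11 and 40.2 to 92.5 on the others.

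**Figure D3:**
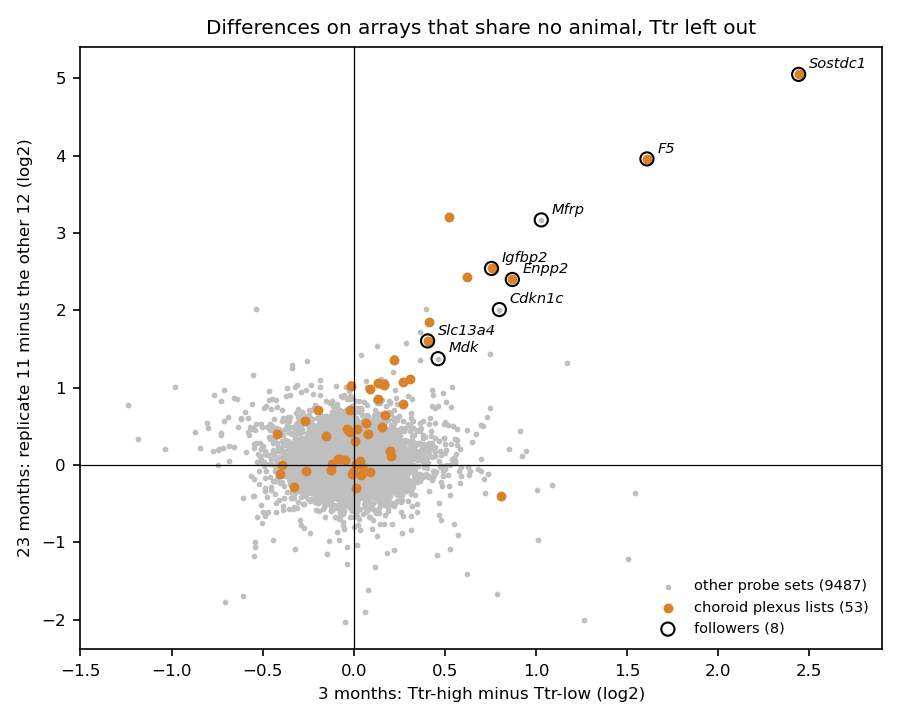
Each point is a probe set that passed the filter, Ttr left out, with the log2 difference of Ttr-high minus Ttr-low arrays at 3 months on the horizontal axis and that of replicate 11 minus the other 12 arrays of 23 months on the vertical axis. Orange points are the 53 probe sets of the choroid plexus lists and circles the 8 named transcripts, which lie up and to the right of the grey mass, with Sostdc1 at 2.44 and 5.05.

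The 9 probe sets called lower on replicate 11 were those of Sirt3, Cdkal1, Susd3, Azi2, Kalrn, Apoe, Psmd13, S100b and Gpr89b, between -2.02 and -0.43 on the log2 scale. Apoe, the astrocyte-rich lipid carrier, had 11134 on replicate 11 and 13724 to 17910 on the others. S100b, a calcium-binding protein of astrocytes, had 9661 on replicate 11 and 11445 to 14763 on the others. At 3 months 0 of the 9 were lower without overlap, against 0.535% of all probe sets, and 7 had a positive difference, against 49.7%, counts too small to read. Several calls ended under other settings. With a floor of 64 Susd3, whose signal on replicate 11 was 23.0, was at -0.55 (limma adjusted p = 0.893) and Kalrn at -1.23 (adjusted p = 0.136). After quantile normalization Apoe was at -0.31 (adjusted p = 0.185) and S100b at -0.13 (adjusted p = 0.873), and on the 13 arrays of 23 months alone Kalrn, Apoe, S100b and Gpr89b were not called.

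The 4 Ttr-high arrays also differed among themselves. By Ttr they ranked replicate 8, then 4, 6 and 7. All 8 transcripts were highest on replicate 8 among these 4 arrays. The share was 42.4% of the 59 higher without overlap at 3 months and 24.3% of all probe sets. Of the 8, 2 followed the whole Ttr order. The 8 were chosen in part on these same arrays, so this is a description. The excess of Ttr over the Ttr-low mean was 74.1% of the excess on replicate 11 for replicate 8, 54.8% for replicate 4, 30.7% for replicate 6 and 23.1% for replicate 7. Each was larger than the same share in any of the 8 transcripts. On replicate 11 Ttr had the third-highest signal of the probe sets with 1 symbol, 16310 where the highest was 21987, while the brightest of the 8 had 6444. Whether the array still read Ttr in proportion at that level was not tested. Their shares were 24.6% to 58.9% on replicate 8, 9.70% to 23.9% on replicate 4, 5.98% to 13.0% on replicate 6 and 4.61% to 21.4% on replicate 7. In Sostdc1 the shares were 25.3%, 9.86%, 8.03% and 4.61% on replicates 8, 4, 6 and 7, and in Enpp2 they were 44.1%, 17.4%, 13.0% and 6.03%.

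Below the threshold, no transcript was called as following Ttr, which leaves room for slopes too small to be called. A slope on log2 Ttr was fitted over the 39 arrays of 6 to 23 months with Ttr below 3000. At an adjusted p under 0.05 limma called 0 of 9540 probe sets in either direction, and 297 (3.11%) had an unadjusted p under 0.05. The smallest unadjusted p among positive slopes was that of Sostdc1, whose log2 signal rose by 0.33 ± 0.09 (SE) per doubling of Ttr, with an adjusted p of 1.0. Sostdc1 had only 20.6 to 103.5 on these 39 arrays, and it passed the filter only through arrays with Ttr of at least 3000. The next smallest p among positive slopes were those of Csk, Cdkn2aipnl, Taf6 and Mybpc2. Cacnb3, Zfp422, St6galnac6, Gucy1b1 and Triap1 had the smallest p among negative slopes. With replicate 11 in the fit, 13 slopes were called, all positive, so that count depends on that 1 array.

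Markers of other tissues were read on the same arrays. In bulk tissue, more cells of a type and more RNA per cell cannot be told apart. Of 3 ependymal probe sets that passed the filter, all had positive 3-month differences with overlap and a median of 0.31, and Tekt1, a microtubule protein of motile cilia, had 107 to 175 on the Ttr-high arrays and 83.6 to 135 on the Ttr-low arrays. The summed ependymal signal was 745 to 917 on the Ttr-high arrays and 635 to 919 on the Ttr-low arrays. The 21 probe sets of meninges and stroma had a median difference of 0.08, with 0 that did not overlap. Their sum was 8961 to 10404 on the Ttr-high arrays and 8183 to 10956 on the Ttr-low arrays. Of 22 endothelial and mural probe sets, 1 was higher without overlap (Emcn, an endothelial sialomucin, by 0.24). Microglial and macrophage markers had a median of 0.05 over 17 probe sets, of which 0 were without overlap. With 0.629% higher without overlap over all probe sets, nothing is read from these counts.

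Of 2 probe sets of blood that passed the filter, 1 (Hbb) had a positive 3-month difference. Their summed signal was 124 to 283 on the Ttr-high arrays and 89.9 to 153 on the Ttr-low arrays, with overlap. Hbb, the beta chain of haemoglobin, had 210, 18.1, 50.5 and 37.9 on Ttr-high replicates 4, 6, 7 and 8, and 15.4 to 23.4 on the Ttr-low arrays. On replicate 11 it had 19.9, against 11.8 to 4388 on the other arrays of 23 months. The array with the most Hbb at 3 months was not the one with the most Ttr.

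Neurons of the hippocampus and of neighbouring regions were read likewise. Of the probe sets of dentate granule cells (8), CA3 and CA2 (9), CA1 (12), thalamus and habenula (9) and neurons (23) that passed, 0 were without overlap, from which nothing is read given the shares over all probe sets (0.629% higher and 0.535% lower). The dentate median was -0.16, with 1 of 8 positive, and the other medians were between -0.09 and -0.02. Prox1, the homeobox factor of dentate granule cells, had 332 to 714 on the Ttr-high arrays and 274 to 1073 on the Ttr-low arrays. CA1 markers summed to 24584 to 29074 on the Ttr-high arrays and 26621 to 29508 on the Ttr-low arrays. On replicate 11, 9 of 24 astrocyte, 3 of 15 oligodendrocyte and 3 of 12 CA1 probe sets were below all 12 others. The share over all probe sets was 7.79%, and the medians of these lists were -0.14, -0.05 and -0.20, in that order. Of these 1 was called (S100b, lost under the settings given above). At 3 months the astrocyte median was 0.07 and the oligodendrocyte median -0.07. On replicate 11, 4 of 21 probe sets of meninges and stroma and 2 of 9 of thalamus and habenula were above all 12 others. The share over all probe sets was 8.24%, and nothing is read from such small counts. The log2 ratio of 3′ to 5′ GAPDH signal, a sign of RNA quality, was 0.150 to 0.379 on the Ttr-high arrays and 0.228 to 0.298 on the Ttr-low arrays, and its part in the differences was not tested.

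**Figure D4:**
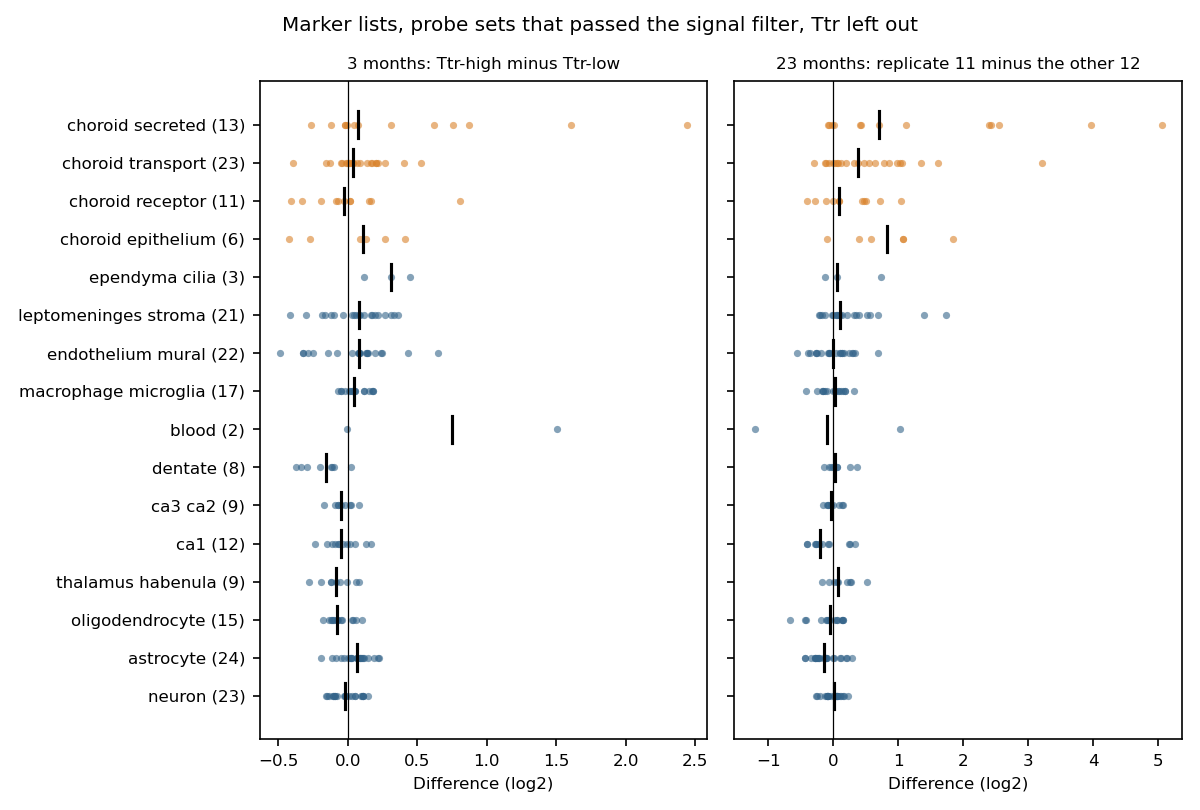
Log2 differences of the probe sets of each marker list that passed the filter (points; number in brackets; bar, median), Ttr-high minus Ttr-low at 3 months on the left and replicate 11 minus the other 12 arrays of 23 months on the right, Ttr left out. The choroid plexus lists (orange) reach 2.44 on the left and 5.05 on the right, while the medians of the neuron list are -0.02 and 0.01.

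The 3-month group is the baseline of the study's age comparison, so the 4 arrays enter every age difference. These contrasts share the 3-month arrays with the split above, and their values are set side by side only. On all 49 arrays the log2 difference of Ttr from 3 months was -1.997 at 6, -2.23 at 9, -2.07 at 12 and -1.18 at 23 months. None of these was called by limma, with adjusted p between 0.343 and 1.0. On the 44 arrays with Ttr below 3000 the differences were 0.24, 0.0016, 0.17 and 0.61, also uncalled.

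The 8 transcripts moved likewise. All 8 had negative differences at 6, 9 and 12 months against 3 months on all arrays, with medians of -0.43, -0.45 and -0.53. On the 44 arrays 3 of the 8 were negative at each of these ages, with medians of 0.02, 0.04 and 0.05. At 23 months 7 were negative on all arrays and 4 on the 44. None of the 8 was called in any age contrast on all arrays. Of all probe sets, limma then called 0.0105% higher and 0 lower at 6 months, 0.0419% higher and 0.0105% lower at 9 months, and 0.168% higher and 0.0314% lower at 12 months. On the 44 arrays these shares were 0.0105% and 0.0105% at 6 months, 0.0105% and 0 at 9 months, and 0.136% and 0.021% at 12 months. These shifts are a description, since the 8 were chosen for being higher on the arrays left out. On the 44 arrays Mdk alone of the 8 was called, at 23 against 3 months, where it differed by 0.26 (limma adjusted p = 0.0374). On all arrays it differed by 0.16 (limma adjusted p = 0.531). Mdk was chosen for having every Ttr-low array of 3 months below the Ttr-high ones, so nothing is read from its call on the 44. Enpp2 averaged 1629 ± 1453 at 23 months (SD, n = 13) and 1613 ± 774 at 3 months (n = 9) on all arrays. On the 44 arrays it averaged 1228 ± 140 at 23 months (n = 12) and 1147 ± 142 at 3 months (n = 5).

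**Figure D5:**
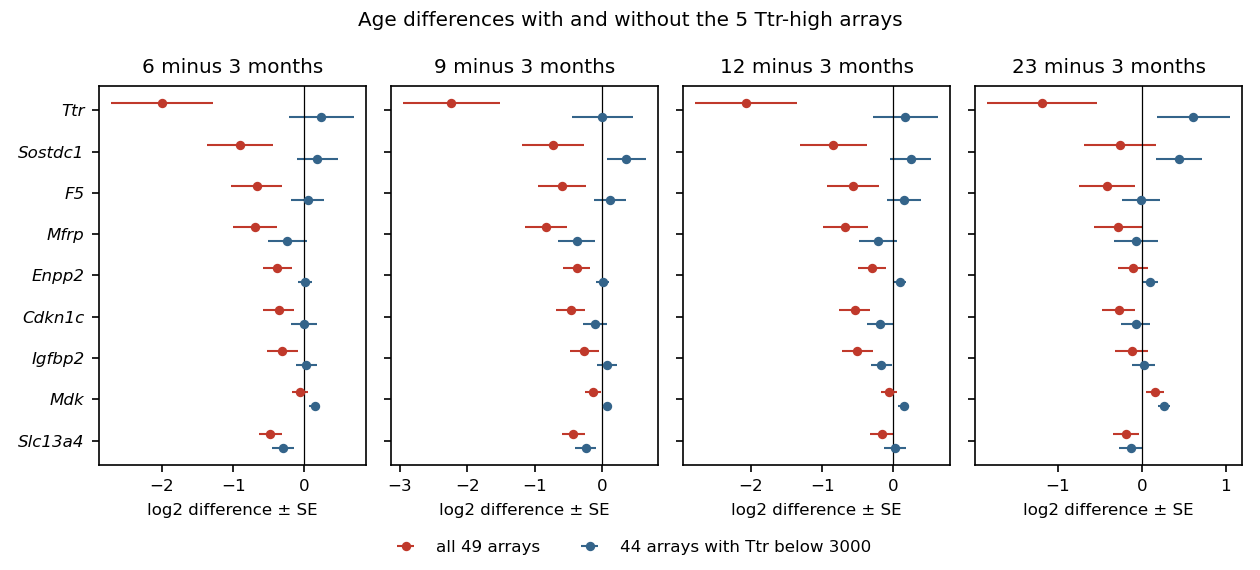
Log2 differences (points, with SE bars) of Ttr and the 8 transcripts at 6, 9, 12 and 23 months minus 3 months, on all 49 arrays (red) and on the 44 with Ttr below 3000 (blue). The red points lie left of the blue ones at every age, and Ttr moves the most, to -2.23 at 9 months on all arrays against 0.0016 on the 44.

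Over all probe sets, 205 were called higher at 23 than at 3 months (2.15%) and 93 lower (0.975%) on the 49 arrays. Without the 5 arrays 154 were higher (1.61%) and 35 lower (0.367%), from 12 arrays of 23 months and 5 of 3 months. The sets shared 137 higher probe sets, which are 66.8% of those called on all arrays and 89.0% of those called on the 44, and 29 lower ones, which are 31.2% and 82.9%.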

How the data were processed

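CA1 RNA of each rat was read on its own Affymetrix RAE 230A array. The deposited values are linear intensities. The authors computed them with MAS5, per the submitters' processing notes, and brought every array to a target intensity of 500, per the series' design text. No version is given in the sources used here. Trimmed means were 497 to 498, median signals 209 to 225, and 10186 to 10924 probe sets of an array reached 100. The number of arrays limits the precision. In the most similar of 1176 pairs of arrays, log2 signals still differed with an SD of 0.38, and none was counted as a repeat.

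Of 15923 probe sets, 57 were controls, 312 had several gene symbols, 2828 had none or were not listed, and 12783 had 1. Current symbols came from the RefSeq table of GRCr8, in which 12748 were found by Entrez ID. Probe sets with a signal of at least 100 on at least 5 of the 49 arrays were kept (9541, of 8094 genes). Signals under 16 were set to 16 (0.054% of values) before log2, with no further scaling.

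The 3-month arrays were split at a Ttr signal of 3000 and described without a test. Tests were made with limma 3.58.1 (lmFit, eBayes with a variance trend) in R 4.3.3, over all kept probe sets, with Benjamini-Hochberg adjustment, and a probe set was called at an adjusted p under 0.05. They were checked on simulated data. The 40 arrays of other ages were fitted with a mean per age and a term for 23 months replicate 11, and 39 of them with a slope on log2 Ttr. The age contrasts were fitted on 49 and 44 arrays. Since every array is another rat, the p-values reflect variation among rats. In the labels, same-numbered arrays of different ages share only a number. Scan dates and presence calls are not used here, and no per-sample column was left unused (0).

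The arrays, the marker lists and the tests were chosen with earlier results of these data known. The rule named the choroid plexus genes at least 2-fold higher and the 5 brightest others, the 15 largest higher and 10 largest lower differences at 3 months, the 5 smallest p in each direction of each fit, and up to 2 genes of each other list. The other probe sets called on replicate 11 and the dim markers were named after their values were seen. Alternatives covered the floor, the filter, normalization, 1 probe set per gene, the variance model, the block and leaving out arrays.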

Additional observations from a re-analysis of the deposited data

Results flagged for a closer look

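Over the 85 named probe sets, 170 groups of 3-month arrays were examined for an array far from the rest of its group by Dixon's ratio, which chance alone passes in about 1 of 20 groups, and 13 passed. On the Ttr-high arrays, replicate 8 stood apart for Cyb561 (852.1, others 565.6 to 598.1) and Slc13a4 (232.2, others 141 to 144.3). Replicate 4 stood apart for Cdkal1 (274.1, others 217.2 to 223.6) and for Hbb (210.3, others 18.1 to 50.5). On the Ttr-low arrays, replicate 1 was low for Mertk (90.7, others 208.5 to 227.4) and Wnt6 (76.1, others 104.5 to 110.3) and high for Sirt3 (863.1, others 797 to 812.7) and Htr2c (1696.1, others 1196 to 1285.5). Replicate 2 was low for Rbm3 (444.5, others 828 to 915.1). Replicate 3 was high for Tuba8 (938, others 649.8 to 707.2) and Folr1 (149.4, others 86.8 to 103.3). Replicate 5 was high for Slc14a2 (182.2, others 123.7 to 139.5) and replicate 9 for Gria1 (960, others 609.5 to 706.6).

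Ifit1 and Myl1 ran in opposite directions in the 3-month split and on replicate 11 of 23 months, a difference that was not tested. Neither was called on replicate 11. Of the 51 probe sets lower without overlap at 3 months, 35 had a positive difference on replicate 11, against 4921 of 9540 over all probe sets. Both genes had 3-month signals near or below 100, and Myl1 passed the filter only through arrays with Ttr of at least 3000. Ifit1, an interferon-induced gene, was lower without overlap at 3 months by -0.715 on the log2 scale and was 0.57 above the mean of the other 12 arrays on replicate 11. Myl1, a muscle myosin light chain, was lower at 3 months by -0.569 and 0.496 higher on replicate 11.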

How the results depend on the processing

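At 3 months the count of probe sets at least 2-fold higher was 1 with the filter set on the 44 arrays below the Ttr threshold, 1 with a filter of 200, 8 with no filter, 60 at any fold, and 2 with a floor of 100, which was chosen after the data were seen. With arrays left out in turn it was 3 to 8, highest without replicate 6 (8) and without replicate 7 (7). The count lower was 8 with no filter, 51 at any fold, and 0 to 2 with arrays left out, with 2 without replicate 8. For the choroid plexus list the count of 3 was 1 with the 44-array filter, 1 with a filter of 200 and 6 at any fold, and 3 to 4 with arrays left out. On replicate 11 the 24 higher calls were 13 with a filter of 200 and 59 with none, and the 9 lower calls were 5 on the 13 arrays of 23 months alone. Leaving out arrays gave 24 to 26 higher and 9 to 11 lower. The slope calls were 0 in both directions with any array left out, and 13 positive with replicate 11 in the fit, where the slope of Mdk was 0.1185 (limma adjusted p = 0.0385), against -0.0111 without it. At 23 against 3 months the 93 lower calls were 35 without the 5 Ttr-high arrays, 70 to 91 with a 3-month array left out, 104 with log2 Ttr as a covariate and 88 after quantile normalization. The 205 higher calls were 178 to 215, 225 and 194 in these last 3. The cause of these changes was not tested, apart from the fewer arrays or probe sets in the fits.

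The 8 transcripts higher at 3 months and on replicate 11 were called on replicate 11 under every alternative that kept their probe sets. Susd3 and Kalrn were not called with a floor of 64 (limma adjusted p = 0.893 and 0.136). Apoe and S100b were not called after quantile normalization (0.185 and 0.873). Zeb1 and Rbm3 were not called after median centring or without a variance trend, and S100b not in the second of these. On the 13 arrays alone Kalrn, Pla2g5, Apoe, Zeb1, Rbm3, Gpr89b, S100b, Cgnl1 and Ppp1r36 were not called. Another Ttr probe set as covariate was not run, since no other has a single symbol. The labels do not pair arrays by replicate number. Deviations of same-numbered arrays correlated with a mean r of 0.0675 (-0.129 to 0.362 over 86 pairs). For other pairs of different ages the mean r was -0.00652. What same-numbered arrays may have in common was not tested. Without a block the counts at 23 against 3 months were 205 higher and 93 lower. With the replicate number as a block the counts were 24 and 9 on replicate 11, 0 and 0 for the slope, and 245 and 108 at 23 against 3 months. Signals near 100 are close to background on these arrays and limit what the dim choroid plexus markers show.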
